A study of Homo sapiens with 24 samples.

Results

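S100A8 and S100A9 sites in first introns are the places between the first and second exons of protein-coding genes at which Flag-tagged S100A8 or S100A9 was called on chromatin. They were chosen from 30322 union sites, which are the genomic intervals left when the peaks of all conditions were merged. A site entered the union when at least 2 replicate libraries of 1 condition had a peak there at a q value of 1e-07 or lower. It was called a first-intron site when its summit lay in intron 1 of the transcript with the longest genomic span of a protein-coding gene, and more than 1500 bp from the 5′ end of every protein-coding or long noncoding RNA (lncRNA) transcript. By this rule 2200 of the 30322 sites, or 7.26%, were first-intron sites. Another 4847 union sites lay in later introns, 9435 between genes, 505 in exons and 13335 within 1500 bp of a transcription start site (TSS). The called peaks chose the members, so the number of libraries that called each member is given below as a description, without a test.

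The measurement was chromatin immunoprecipitation followed by sequencing (ChIP-seq) with an antibody to Flag. The cells were MCF-10A, an immortal but nontransformed human breast epithelial line, and carried ER-Src, in which the v-Src kinase is held inactive by an attached hormone-binding part of the estrogen receptor until ligand is added. All groups carried ER-Src and either S100A8-Flag or S100A9-Flag introduced with a retroviral vector, so the tagged protein came in addition to the cells' own gene. Cells received 1 μM 4-hydroxytamoxifen (TAM) for 24 hours, which activates ER-Src and starts transformation, or its solvent ethanol (EtOH), and were fixed with protein-protein cross-linkers before formaldehyde. The S100A8-Flag group had 2 EtOH and 3 TAM libraries, and the S100A9-Flag group had 3 EtOH and 3 TAM libraries, all labelled as biological replicates. A library held between 1853 and 4609 peaks at this q value in EtOH and between 21518 and 40735 in TAM. The lists give no read numbers, so the depth of each library is unknown. In a comparison of TAM with EtOH, more binding and a deeper or more efficient library cannot be told apart.

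First introns are on average the longest introns of human genes, and they often hold enhancers and secondary promoter elements. S100A8 and S100A9 are small calcium-binding proteins of the S100 family, best known as a heterodimer that is secreted by neutrophils and stressed epithelial cells and acts on cell-surface receptors. Neither protein has a known DNA-binding domain. AP-1, a dimer of FOS and JUN family proteins, is a DNA-binding factor common at enhancers of epithelial cells. CTCF is a zinc finger protein that binds insulators and the anchors of chromatin loops.

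The following sequences show what the summits of first-intron sites look like. Each is the 101-base stretch of the hg19 reference, plus strand, with the summit in its middle. Capitals mark matches to the motifs that were searched on both strands, which are listed with their letters further below. The site in BTRC, an F-box protein gene (chr10:103124604-103124704), is shown because it was the only first-intron site called in all 11 libraries. The site in IL6R, the interleukin 6 receptor gene (chr1:154390970-154391070), was called in 10 libraries. The site in CLMP, an adhesion molecule gene (chr11:122989444-122989544), was called in every TAM library and no EtOH library. In the stretches shown, EXD3 (chr9:140306229-140306329), WNT4 (chr1:22459148-22459248) and KIAA1522 (chr1:33225839-33225939) had the AP-1 letters alone, with a STAT3 match, and with KLF/SP1 and TEAD matches. GBX1 (chr7:150869777-150869877) and SNX9 (chr6:158177829-158177929) had a CTCF match. LARP1 (chr5:154071843-154071943) held C/EBP and TEAD matches, GPM6B (chrX:13845989-13846089) a CREB match and ELL (chr19:18589831-18589931) an ETS and a RUNX match. NGFR (chr17:47579006-47579106) was called in EtOH and in no TAM library.
BTRC: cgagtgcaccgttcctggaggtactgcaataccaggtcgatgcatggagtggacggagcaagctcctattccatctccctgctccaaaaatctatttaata
IL6R: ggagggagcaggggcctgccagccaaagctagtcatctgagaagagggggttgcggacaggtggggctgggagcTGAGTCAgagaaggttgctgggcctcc
CLMP: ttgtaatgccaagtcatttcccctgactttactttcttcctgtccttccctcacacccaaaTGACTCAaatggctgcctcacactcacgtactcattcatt
EXD3: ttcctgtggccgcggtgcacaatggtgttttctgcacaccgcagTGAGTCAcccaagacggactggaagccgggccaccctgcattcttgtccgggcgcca
WNT4: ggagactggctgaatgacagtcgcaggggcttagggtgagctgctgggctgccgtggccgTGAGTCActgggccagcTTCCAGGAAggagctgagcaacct
KIAA1522: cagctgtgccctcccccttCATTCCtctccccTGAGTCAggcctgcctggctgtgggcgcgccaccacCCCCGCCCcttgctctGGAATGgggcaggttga
GBX1: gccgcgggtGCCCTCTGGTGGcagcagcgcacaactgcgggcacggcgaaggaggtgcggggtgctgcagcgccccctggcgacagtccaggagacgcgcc
SNX9: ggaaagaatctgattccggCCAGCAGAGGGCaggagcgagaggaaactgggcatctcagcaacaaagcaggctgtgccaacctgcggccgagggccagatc
LARP1: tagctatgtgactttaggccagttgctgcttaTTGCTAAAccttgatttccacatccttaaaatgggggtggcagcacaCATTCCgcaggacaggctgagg
GPM6B: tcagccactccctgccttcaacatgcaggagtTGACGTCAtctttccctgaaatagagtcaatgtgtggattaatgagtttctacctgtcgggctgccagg
ELL: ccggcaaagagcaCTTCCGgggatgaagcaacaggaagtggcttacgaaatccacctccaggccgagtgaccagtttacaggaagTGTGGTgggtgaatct
NGFR: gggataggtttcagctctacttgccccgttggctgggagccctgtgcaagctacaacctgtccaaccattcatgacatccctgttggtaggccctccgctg

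First-intron sites were called far more often in TAM than in EtOH libraries. The S100A8 EtOH libraries called 169 and 166 of the 2200 members, and the S100A9 EtOH libraries called 110, 51 and 126. The S100A8 TAM libraries called 1217, 1165 and 1059 members, and the S100A9 TAM libraries called 1324, 1267 and 1796. The groups did not overlap, and the mean was 5.65% ± 2.19 of the members in EtOH (SD, n = 5) and 59.3% ± 11.7 in TAM (SD, n = 6). Over all union sites the means were 9.96% in EtOH and 63.2% in TAM. Later-intron sites had 4.85 and 57.8%, and intergenic sites 6.02 and 59.8%. A larger share of the TAM than of the EtOH libraries called 2177 members, or 99.0%, against 98.2% of all union sites. The opposite held for 14 members, or 0.636%, against 0.824% of all union sites. These shares are near the background, so the direction is that of the whole peak set. The median fold enrichment over input at the called members was 7.73 to 8.62 in the EtOH libraries and 7.70 to 8.53 in the TAM libraries, values that share the floor set by the q threshold. When only the 1853 strongest peaks of each library were kept, the median at first-intron peaks lay between 8.44 and 9.54 for the EtOH libraries and between 12.9 and 15.1 for the TAM libraries, without overlap. Later-intron and intergenic peaks had 8.37 to 9.91 in EtOH and 12.9 to 15.1 in TAM under the same limit. The 1853 strongest are all peaks of S100A9 EtOH replicate 2 but only the top of TAM lists of 21518 to 40735. These gaps therefore cannot be read apart from the lengths of the lists.

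**Figure D1:**
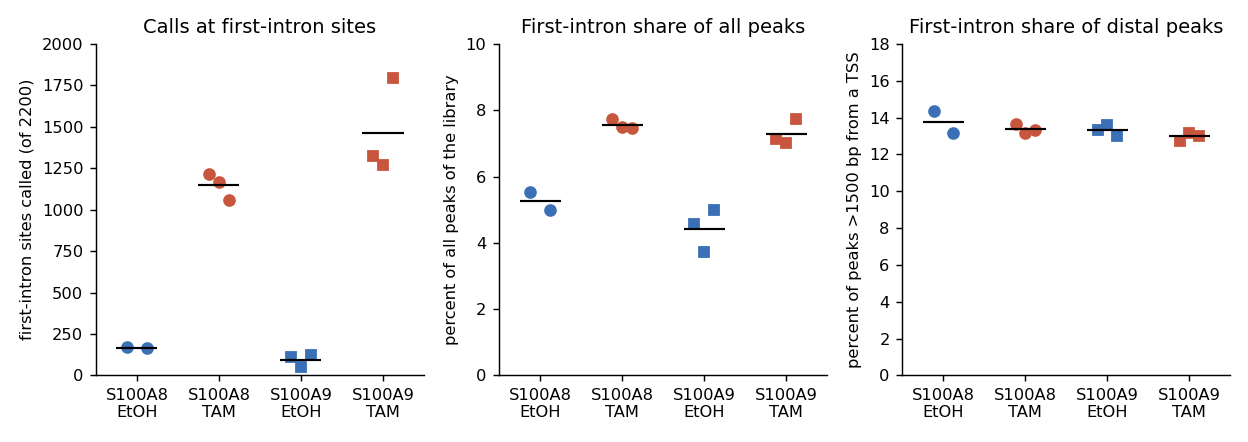
Points are the 11 libraries by protein and treatment, and the line in each group is its mean. The panels plot the number of the 2200 first-intron sites called, the first-intron share of all peaks of the library in percent, and the first-intron share of the peaks more than 1500 bp from every TSS in percent. The TAM libraries lie above the EtOH libraries in the first and second panels, with EtOH shares of 3.72 to 5.55% and TAM shares of 7.01 to 7.75% of all peaks, and the groups overlap in the third.

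Few first-intron sites were called throughout. All 6 TAM libraries called 232 members, or 10.5%, compared with 14.3% of all union sites, 8.25% of later-intron sites and 10.2% of intergenic sites. No EtOH library called 1752 members, or 79.6%, compared with 68.9% of all union sites, 81.7% of later-intron sites and 78.9% of intergenic sites. All 5 EtOH libraries called 1 member, or 0.0455%, compared with 0.425% of all union sites. These counts are given without a test. Most members were seen in a small number of libraries: 472 in 2, 655 in 3, 411 in 4 and 309 in 5, whereas 15 were seen in 9, 4 in 10 and 1 in 11.

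The proteins shared part of their sites. At least 2 replicates called 1230 members in S100A8 TAM, 1728 in S100A9 TAM, 43 in S100A8 EtOH and 38 in S100A9 EtOH. Of the 2200 members, 714 passed in both TAM conditions and in no EtOH condition, 948 passed only in S100A9 TAM and 461 only in S100A8 TAM. The matching counts over all union sites are not given here, so these numbers describe the members only. A condition that misses a site by 1 replicate counts here as without it, so full separation was much rarer. All 3 S100A8 TAM libraries and no S100A9 TAM library called 17 members, or 0.773%, against 0.587% of all union sites. All 3 S100A9 TAM libraries and no S100A8 TAM library called 64 members, or 2.91%, against 3.21% of all union sites. Both shares lie near the background.

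The BTRC site is the member seen in every library. BTRC encodes the substrate-recognition subunit of the ubiquitin ligase that marks IκB and β-catenin for degradation, and the site (chr10:103124548-103124763, plus strand) lay 10864 bp from the TSS of its host transcript. Its fold enrichment was 5.04 and 8.59 in S100A8 EtOH, 9.63, 9.001 and 6.40 in S100A8 TAM, 6.64, 6.87 and 8.92 in S100A9 EtOH, and 10.8, 10.7 and 7.78 in S100A9 TAM. The EtOH and TAM ranges overlapped in both proteins. It was also the only member whose summit lay on an annotated small RNA gene, RNU2-59P, a U2 small nuclear RNA pseudogene copy, and it held none of the motifs searched.

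The other sites named by number of libraries had 4 EtOH and 6 TAM calls each. IL6R encodes the ligand-binding receptor of interleukin 6, and its site (chr1:154390594-154391338) lay 13201 bp into the gene. Its fold enrichment was 12.5 and 8.59 in S100A8 EtOH, 5.67, 7.88 and 11.3 in S100A8 TAM, 9.26 and 5.67 in the S100A9 EtOH libraries that called it, and 11.6, 13.99 and 13.3 in S100A9 TAM. The treatments overlapped in S100A8, while in S100A9 the TAM values lay above the EtOH values. Such separations at single sites, here and below, rest on few libraries of unknown depth and were not tested. How many of all sites separate in the same way is not given. GALNT2, a Golgi enzyme that starts O-glycosylation, had a site (chr1:230240229-230241200) 37666 bp from the TSS with a C/EBP match, with values from 6.74 to 9.99 in EtOH and from 8.54 to 21.0 in TAM. PER1, a core repressor of the circadian clock, had a TEAD match in its site (chr17:8057437-8058062, minus-strand gene) at 2096 bp, with 8.56 to 12.8 in EtOH and 8.45 to 19.2 in TAM. The ZNF487 site (chr10:43950733-43951454) had 9.22 to 12.6 in EtOH and 6.19 to 14.4 in TAM. With the proteins pooled, the ranges of the treatments overlapped in each of these genes. Within S100A9 the PER1 site did not overlap, with 8.90, 8.56 and 12.8 in EtOH and 16.9, 17.5 and 19.2 in TAM. Within S100A8 the GALNT2 site had 6.74 in the EtOH library that called it and 10.3 to 21.0 in TAM. PER1 in S100A8, GALNT2 in S100A9 and ZNF487 in each protein overlapped.

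A group of 113 members was called in 6 TAM and 0 EtOH libraries. The share of all union sites with this pattern, or with the opposite one below, is not given here, so these counts describe the members only. The strongest by rank among the TAM peaks was in UPK2, which encodes a uroplakin of the urothelial surface (chr11:118800884-118801381), with 17.4, 9.65 and 17.5 in S100A8 TAM and 10.9, 12.5 and 14.5 in S100A9 TAM. The LARP1 site (chr5:154071416-154072190), in the gene of an RNA-binding regulator of ribosomal protein mRNAs, ranged from 10.5 to 16.2. The GBX1 site (chr7:150869693-150869946), in a homeobox gene, had 8.74, 8.54 and 10.7 in S100A8 TAM and 15.996, 17.1 and 12.1 in S100A9 TAM. These GBX1 values did not overlap between the proteins, which was not tested. ACTN4, which encodes the actin cross-linker α-actinin 4, had a site (chr19:39174153-39175369) that also lay on a lncRNA gene, with 7.61 to 9.82 in S100A8 TAM and 12.8 to 15.04 in S100A9 TAM. The CLMP site (chr11:122989303-122989628) lay 76462 bp from the TSS and ranged from 8.68 to 11.95. The opposite pattern, at least 2 EtOH and 0 TAM libraries, occurred at 2 members. Both were called in S100A9 EtOH replicates 1 and 3 only, the NGFR site (chr17:47578943-47579188), in the gene of the p75 neurotrophin receptor, at 7.99 and 7.77, and the CHD9 site (chr16:53124891-53125217), in a chromatin remodeler gene, at 7.22 and 8.37.

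**Figure D2:**
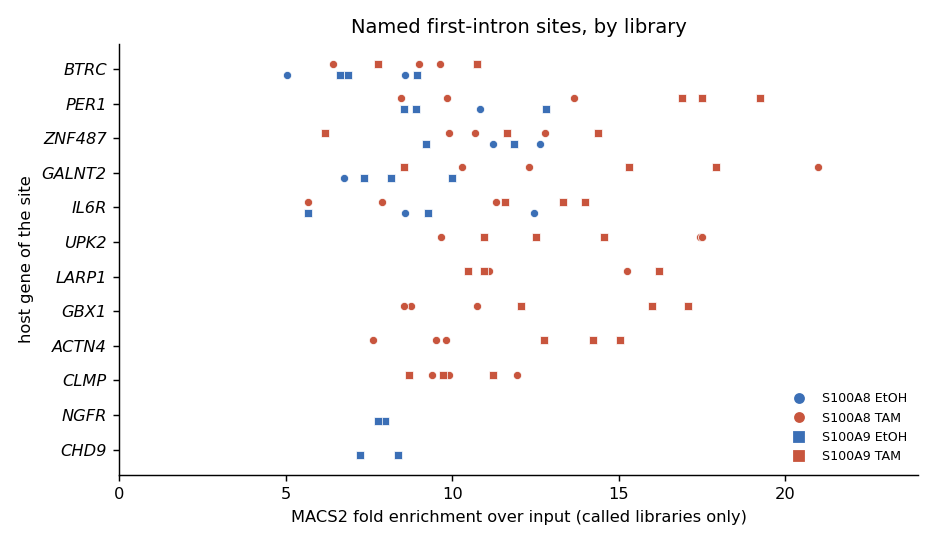
Fold enrichment over input (horizontal axis, linear scale) of the named first-intron sites, with 1 row per site and 1 point per library that called it. The sites are those called in the most libraries, those called in 6 TAM and 0 EtOH libraries, and those called in EtOH only. The NGFR and CHD9 rows hold EtOH points only, between 7.22 and 8.37.

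Each library was then asked what part of its own peaks lay in first introns, which does not depend on the union. The share was 5.55 and 4.99% in S100A8 EtOH and 4.56, 3.72 and 4.98% in S100A9 EtOH. It was 7.74, 7.49 and 7.45% in S100A8 TAM and 7.14, 7.01 and 7.75% in S100A9 TAM. The groups did not overlap, and the means were 4.76% ± 0.677 (SD, n = 5) and 7.43% ± 0.306 (SD, n = 6). TAM minus EtOH was 2.58 percentage points averaged over the proteins (two-sided exact permutation test within proteins, p = 0.01, the smallest this design can give). It was 2.29 points in S100A8 (exact permutation p = 0.2, the smallest possible) and 2.88 in S100A9 (exact permutation p = 0.1, the smallest possible). With the 1853 strongest peaks of every library the difference was 1.60 points (exact permutation p = 0.02).

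Other classes away from promoters also had larger shares in TAM. From EtOH to TAM the mean share of peaks within 1500 bp of a TSS went from 64.7 to 43.7%, that of later introns from 8.98 to 16.2% and that of intergenic sequence from 20.1 to 31.1%. Among only the peaks more than 1500 bp from every TSS, a denominator chosen after the data were seen, first introns held 14.4 and 13.1% in S100A8 EtOH, 13.3, 13.6 and 13.0% in S100A9 EtOH, 13.7, 13.2 and 13.4% in S100A8 TAM and 12.8, 13.2 and 13.0% in S100A9 TAM. The groups overlapped, with means of 13.5% ± 0.546 (SD, n = 5) and 13.2% ± 0.306 (SD, n = 6), and the difference was −0.342 points (exact permutation p = 0.26). S100A9 minus S100A8 was −0.554 points of all peaks (exact permutation p = 0.07) and −0.425 of the distal peaks (exact permutation p = 0.15). It was −0.667 points without S100A9 TAM replicate 3 (exact permutation p = 0.02).

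First-intron sites were spread over the whole length of the introns, and their density was lower in the bins farther from the TSS. First introns beyond 1500 bp of a TSS make up 267 Mb, or 9.43% of the genome, and held 8.23 sites per Mb. Later introns held 6.15 and intergenic sequence 6.29 sites per Mb, while sequence within 1500 bp of a TSS held 56.7. The median distance of a member from the TSS of its host transcript was 19872.5 bp, with an interquartile range of 7448.5 to 48172.2 bp, against a median of 29081 bp for all windows of the same sequence. The density fell from 12.6 sites per Mb at 1500 to 5000 bp to 10.1 at 5 to 10 kb, 9.13 at 10 to 25 kb, 8.06 at 25 to 50 kb, 6.81 at 50 to 100 kb and 4.62 beyond 100 kb. It also fell with the length of the first-intron sequence of a gene, from 15.8 sites per Mb in the shortest of 5 groups of genes to 6.75 in the longest. Only long introns reach the far bins, so distance and intron length cannot be told apart here. Along the intron from its 5′ to its 3′ end, each of 10 equal parts held 7.27 to 11% of the sites and 7.05 to 10.6% of the windows, so the position was close to even.

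**Figure D3:**
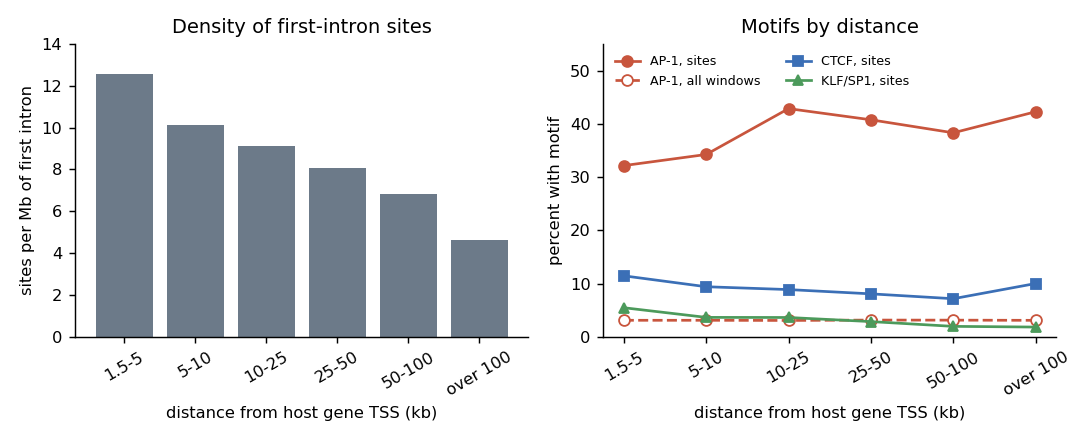
Left, first-intron sites per Mb of first-intron sequence (bars, axis from 0) by distance from the TSS of the host transcript in kb. Right, percent of those sites with an AP-1, CTCF or KLF/SP1 match within 100 bp of the summit, with the share of all first-intron windows that hold AP-1 as a dashed line. Density falls from 12.6 to 4.62 sites per Mb, and the AP-1 share lies between 32.2 and 42.9% in every bin, above the 3.09% of all windows.

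Members far from the TSS differed from those near it. KLF/SP1 letters stood at 5.45% of the members at 1500 to 5000 bp and at 1.82% beyond 100 kb. All first-intron windows of these bins held them at 0.677 and 0.267%, so the level of the surrounding sequence fell as well. AP-1 stood at 32.2 and 34.2% in the first pair of bins and at 42.9, 40.8, 38.3 and 42.3% in the later bins. The share called in an EtOH library was 20.7 to 23.6% up to 50 kb, 16.2% at 50 to 100 kb and 11.4% beyond. The values on either side of the line at 1500 bp are given without a test. The 98 first-intron summits at 1251 to 1500 bp, just outside the rule, had a median GC content of 57.0%, AP-1 in 31.6% and KLF/SP1 in 1.02%, and 41.8% were called in EtOH. The 94 members at 1501 to 1750 bp had a GC content of 54.7%, AP-1 in 31.9% and KLF/SP1 in 10.6%, and 26.6% were called in EtOH. For the threshold on q, the best −log10 q of a member was 7.07 at the lowest and 16.1 at the median, and 28 members stayed under 8.

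The sites were narrow and richer in G and C than the sequence around them. Their median width was 292 bp, with an interquartile range of 222 to 398.25 bp. The median GC content of the 201 bases around the summit was 52.2%, compared with 46.8% in the flanks, 40.8% in all windows of first introns and 65.2% at sites within 1500 bp of a TSS. Per library, first-intron peaks of EtOH cells had a median GC content of 55.7 to 57.2% and those of TAM cells 51.2 to 52.2%, without overlap. The difference was −5.06 points (exact permutation p = 0.01), and −3.01 points with equal numbers of peaks (exact permutation p = 0.01). The means of the other distal classes were also lower in TAM, 56.5% in EtOH and 51.1% in TAM for later introns and 57.1 and 51.4% for intergenic peaks.

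A set of 10 motifs was searched within 100 bp of each summit on both strands, with N standing for any base: AP-1 as TGACTCA, CREB as TGACGTCA, C/EBP as TTGCNNAA, STAT3 as TTCCNGGAA, ETS as CGGAAG, KLF/SP1 as CCCCGCCC, TEAD as GGAATG, RUNX as TGTGGT, NF-κB as GGGANTTCC, and CTCF by its core motif. A match describes the letters only, and no binding of these factors was measured here. AP-1 was the most frequent, at 851 members or 38.7%, against 3.77% of the flanks and 3.09% of all first-intron windows of the same length, a ratio of 12.5 to the windows. CTCF letters stood at 200 members or 9.09%, against 0.591% of the flanks and 0.261% of the windows, a ratio of 34.8. Both matches crowded at the summit: the median distance was 24 bp for AP-1 and 18.5 bp for CTCF, and 52.6% and 60.5% of the members with the match had it within 25 bp.

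The remaining motifs were closer to their level in ordinary first-intron sequence. C/EBP stood at 340 members or 15.5% and TEAD at 360 or 16.4%, with ratios of 1.48 and 1.54 to the windows. RUNX stood at 347 or 15.8%, a ratio of 1.12. ETS and KLF/SP1, the letters typical of promoters, stood at 136 (6.18%) and 74 (3.36%) members, with ratios of 3.65 and 7.47, but at 22.8 and 20.6% of the sites within 1500 bp of a TSS. STAT3 stood at 31 members, NF-κB at 27 and CREB at 9, with ratios of 3.06, 2.59 and 5.73. Against the flanks, whose GC content was nearer that of the members, the ratios were 2.41 for ETS and 2.96 for KLF/SP1. They were 1.71 for C/EBP, 1.44 for TEAD, 1.05 for RUNX, 2.21 for STAT3, 2.16 for NF-κB and 6 for CREB. None of the 10 motifs was found at 539 members (24.5%), 1 at 1070 (48.6%) and 2 at 485 (22.05%).

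**Figure D4:**
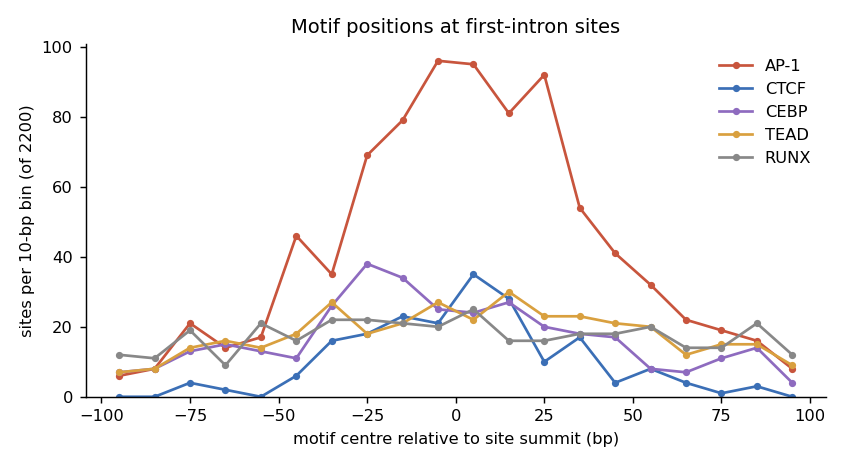
Number of first-intron sites per 10-bp bin (vertical axis) by the offset in bp from the summit to the nearest match (horizontal axis) of AP-1, CTCF, C/EBP, TEAD and RUNX. AP-1 and CTCF matches peak around the summit, where 52.6 and 60.5% of them lie within 25 bp, and the curves of TEAD and RUNX are flatter.

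AP-1 and CTCF letters rarely met. Of the 851 members with AP-1, 13 also had CTCF, or 1.53%, against 9.09% of all members. C/EBP accompanied AP-1 at 97 members, or 11.4% against 15.5%, TEAD at 141 and RUNX at 137. AP-1 stood at 36.2% of the 448 members called in an EtOH library and at 39.3% of those called in none.

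The treatment comparison was made on each library's own first-intron peaks. AP-1 letters stood at 30 and 32.6% in S100A8 EtOH, 25, 30.4 and 18.3% in S100A9 EtOH, 32.6, 35.4 and 37.3% in S100A8 TAM and 39.0, 36.9 and 37.9% in S100A9 TAM. The TAM values lay above the EtOH values within each protein, with the nearest S100A8 libraries equal at the digits given. The smallest library had 69 first-intron peaks and a 95% Wilson interval of 20.8 to 42.1%, and the largest had 3157 and 36.2 to 39.6%, which covers counting error only. TAM minus EtOH was 8.57 points (exact permutation p = 0.01, Benjamini-Hochberg adjusted p = 0.1 over 10 motifs). It was 3.81 points in S100A8 and 13.3 in S100A9, and 14.5 over both with equal numbers of peaks (exact permutation p = 0.01). The mean AP-1 share went from 27.3 to 36.5% at first-intron peaks, from 25.4 to 36.5% at later-intron peaks and from 23.02 to 34.4% at intergenic peaks. No motif passed, since 0 of 10 had an adjusted p under 0.05, and 1 motif alone cannot go below 0.1 here. At an unadjusted p under 0.05 there were 2, AP-1 and KLF/SP1, the latter at −1.21 points (exact permutation p = 0.04).

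First-intron peaks were also set against later-intron and intergenic peaks of the same library, a comparison in which depth and treatment are shared. CTCF letters were the clearest difference. They stood at a mean of 7.34% of first-intron peaks, 11.2% of later-intron peaks and 13.0% of intergenic peaks. They were lower in first introns in 11 of 11 libraries in both comparisons, by 3.90 and 5.70 points (exact sign-flip permutation over libraries, adjusted p = 0.00977 for each over 20 differences). The libraries share many of their sites, so the p-values of this comparison measure agreement between libraries and not the sampling of sites. KLF/SP1 was 0.887 points higher than in later introns, in 10 of 11 libraries (3.70 against 2.81%, exact sign-flip adjusted p = 0.0146). AP-1 was 3.10 points higher than in intergenic peaks, in 10 of 11 libraries (32.3 against 29.2%, exact sign-flip adjusted p = 0.0130), whereas the difference from later introns did not pass, with 0.857 points and 7 of 11 libraries (exact sign-flip adjusted p = 0.657). With 1 TSS per gene AP-1 was lower in first introns, by −2.26 points against later introns (exact sign-flip adjusted p = 0.00868) and −2.31 against intergenic peaks (exact sign-flip adjusted p = 0.00244), while beyond 5000 bp it was 3.42 points above later introns (exact sign-flip adjusted p = 0.00781). With every deposited peak AP-1 minus intergenic was 0.207 (exact sign-flip adjusted p = 0.423) and KLF/SP1 minus later introns 0.218 (exact sign-flip adjusted p = 0.306). With equal numbers of peaks these were 1.90 and 1.32 points (exact sign-flip adjusted p = 0.636 and 0.137), and beyond 5000 bp KLF/SP1 was 0.310 (exact sign-flip adjusted p = 0.522).

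**Figure D5:**
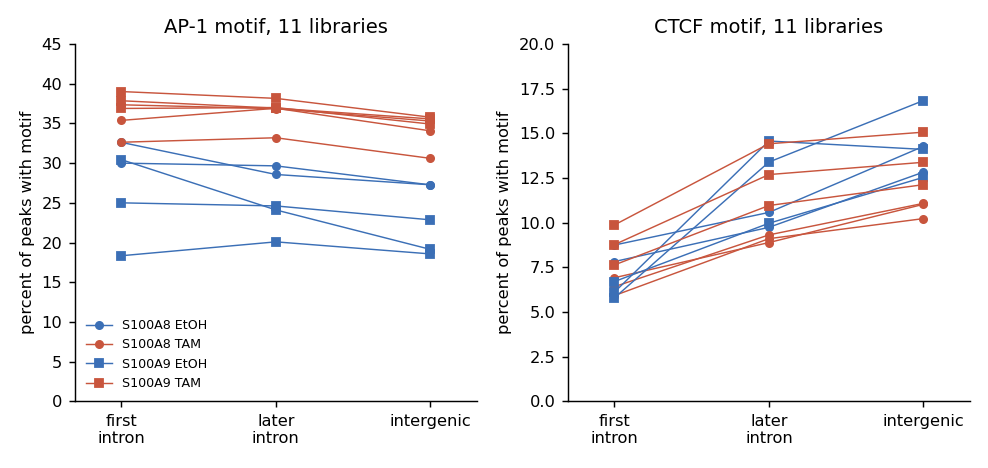
Percent of peaks with an AP-1 (left) or CTCF (right) match within 100 bp of the summit in first introns, later introns and intergenic sequence, with 1 line per library coloured by treatment. The CTCF lines rise from first introns to both other classes in all 11 libraries, with means of 7.34, 11.2 and 13.0%.

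The rank of first-intron peaks by strength did not differ past the threshold from that of other distal peaks. The median percentile of fold enrichment of first-intron peaks within a library differed by 0.357 from that of later-intron peaks (exact sign-flip permutation p = 0.719) and by −1.003 from that of intergenic peaks (exact sign-flip permutation p = 0.211). The latter difference passed at −1.10 with every deposited peak (exact sign-flip p = 0.0234) and at −1.53 with the longest spliced transcript (exact sign-flip p = 0.0469), and turned to 0.411 with 1 TSS per gene (exact sign-flip p = 0.406). Their median distance from the TSS was 2720.5 bp larger in TAM than in EtOH (exact permutation p = 0.01), but −306.333 bp with equal numbers of peaks (exact permutation p = 0.9).

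The host genes were partly bound at their promoters. A host promoter peak, a peak between 1500 bp before and 250 bp after a host TSS, was present in the union for 62.5% of the members. In the same library it accompanied 4.35 to 22.3% of first-intron peaks in EtOH and 47.1 to 65.1% in TAM, a difference of 39.8 points (exact permutation p = 0.01) that was −0.0691 with equal numbers of peaks (exact permutation p = 0.98). Later-intron peaks were similar, with means of 19.5% in EtOH and 51.6% in TAM, beside 14.6 and 54.4% for first-intron peaks. First minus later introns was −0.725 points (exact sign-flip permutation p = 0.665). Of the 12103 genes with first-intron sequence beyond 1500 bp of a TSS, 1481 (12.2%) had a site. The share was 14.2% of the 6246 genes with a promoter site and 10.2% of the 5857 without, and the density was 10.2 and 5.78 sites per Mb. The density was higher in promoter-bound genes in each of 5 groups of genes by length of this sequence, from 21.1 against 10.9 in the shortest to 8.99 against 4.83 in the longest.

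Sites shared introns. One site was found in 1051 genes, 2 in 267 and 3 or more in 163, so that 1149 members (52.2%) shared an intron with another member and are not independent of each other. The median gap between neighbours in an intron was 11017 bp. Introns with a site had a median length of 38155 bp against 8828.5 bp without. An exon of another transcript lay over 54 members and a lncRNA gene body over 166, and the class of these members depends on the transcript chosen. The number of members was 1685 with the longest spliced transcript and 3070 with 1 TSS per gene.

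NAV2, a gene of the neuron navigator family, and KCNIP1, which encodes a potassium channel-interacting protein, had the most sites, 10 each. The NAV2 intron (chr11:19372575-19854029) spans 481 kb. No EtOH library called any of its sites, the S100A8 TAM libraries called 5, 5 and 4, and the S100A9 TAM libraries called 6, 6 and 9. The KCNIP1 intron (chr5:169780969-170145761) spans 365 kb, and its promoter held no site. Of its 10 sites, 4 were called in all 6 TAM libraries and 2 in an EtOH library, and 4 had AP-1 and 3 CTCF letters. RORA, a nuclear receptor gene, PXN and EXT1, which encodes a heparan sulfate polymerase, had 8 sites each.

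PXN had the highest density among genes with 5 or more sites. It encodes paxillin, the scaffold of focal adhesions, and held its 8 sites in 41.2 kb (chr12:120662181-120703419), or 1.94 per 10 kb. No EtOH library called any of them, while the S100A8 TAM libraries called 6, 6 and 2 and the S100A9 TAM libraries 5, 2 and 5. The sites lay 3360 to 37216 bp from the TSS. The site at 34256 bp, the only one with AP-1 letters, was also the only one called in all 6 TAM libraries, at 5.92, 7.88 and 10.2 in S100A8 and 8.71, 10.2 and 7.15 in S100A9. RALGDS, an exchange factor for Ral GTPases downstream of Ras, followed with 5 sites and 1.36 per 10 kb. Its site at 13956 bp (chr9:136010488-136011139), with AP-1 and C/EBP letters, had 5.30, 5.91 and 10.8 in S100A8 TAM and 15.2, 25.8 and 15.6 in S100A9 TAM, so the proteins did not overlap, which was not tested. It had 7.01 to 8.76 in the 3 EtOH libraries that called it. RAB31, ELL and OPA3 had 1.05, 1.02 and 0.906 sites per 10 kb.

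Lists of genes of known function were then read for first-intron sites, beside 12.2% of genes and 8.23 sites per Mb over all genes. The share rises with the length of the sequence, from 1.16% in the shortest of 5 groups of genes (median 675 bp) to 32.9% in the longest (median 57444.5 bp), so a list of long genes has a high share without being set apart. The density falls over the same groups, from 15.8 to 6.75 sites per Mb, so densities of lists of unlike length are not directly comparable. No list was tested. Among the EGF receptor family, ligands and adaptors, 8 of 14 genes had a site at 7.31 sites per Mb, and among focal adhesion and integrin genes 10 of 20 at 34.8 per Mb. PXN alone held 8 of the 18 sites of the focal adhesion list. Desmosome and adherens junction genes had 6 of 14 at 32.03 per Mb and laminins, collagens and basement membrane genes 2 of 9 at 7.1998. AP-1 and immediate early transcription factors had 4 of 11 at 69.7 per Mb, over only 0.0861 Mb, and basal epithelial transcription factors 6 of 13 at 19.999. The signaling lists gave 3 of 8 for IL6, LIF and STAT3 at 16.4 per Mb and 2 of 10 for NF-κB at 57.5, over only 0.0696 Mb. They gave 5 of 17 for TGF-β and SMADs at 22.7 per Mb, 4 of 18 for MAP kinase at 10.8 and 0 of 9 for YAP, TAZ and TEAD. Receptors and adaptors of S100A8/A9 had 1 of 11, the adhesion molecule gene ALCAM, and cytosolic ribosomal protein genes 0 of the 1 with enough sequence. Neuronal synapse genes, from another cell type, had 4 of 17 at 1.11 sites per Mb with a median length of 201 kb, namely CADM2, SYT1, OPCML and CSMD1. Blood cell genes had 2 of 15 at 5.93, CD247 and VAV1.

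The interleukin 6 receptor gene carried 4 sites within its first intron (chr1:154378191-154401671). The site at 13201 bp is the one described above. Those at 15050 and 16888 bp also had AP-1 letters and were called in 5 and 3 TAM libraries and no EtOH library, while the one at 14385 bp had none of the motifs and was called in 2 EtOH and 4 TAM libraries. JAK1, the kinase of the IL6 receptor complex, and PTPN2, a phosphatase acting on JAK and STAT proteins, had 1 site each. In the NF-κB list, TNIP1, an inhibitor of NF-κB activation, had 3 sites, all with AP-1 letters and none called in EtOH, and MAP3K14, the kinase of the noncanonical pathway, had 1.

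EGFR, the receptor tyrosine kinase for EGF, had 5 sites between 1658 and 114894 bp. The nearest (chr7:55088325-55088575) was called in both S100A8 EtOH libraries at 8.03 and 9.32 and in 3 TAM libraries at 7.13 to 9.50, and the other 4 in TAM alone. SHC1, the adaptor that links EGFR to Ras, had 1 site (chr1:154945030-154945415) with 9.67 in S100A8 EtOH replicate 1 and 8.11 to 13.9 in all 6 TAM libraries. NRG1, a ligand of the family, had 2 sites.

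Among cytoskeletal and junction genes, MYO1E, a myosin motor of actin-membrane contacts, had 7 sites, 4 of them with AP-1 letters. MYH9, the nonmuscle myosin IIA heavy chain, had 4. NECTIN1, a junctional adhesion molecule, had 3 sites, each with AP-1 letters. The NECTIN1 site at 32020 bp (chr11:119567042-119567925) had 14.5 in S100A8 EtOH replicate 1 and 7.01 in S100A9 EtOH replicate 3, and 7.62, 12.3 and 8.51 in S100A8 TAM and 10.99, 9.87 and 8.77 in S100A9 TAM. The treatments overlapped with the proteins pooled. The EtOH value lay above the TAM values in S100A8 and below them in S100A9, with 1 EtOH library in each, which was not tested. CTNNA1, which encodes α-catenin, had 3 sites, ITGA6, the integrin α6 chain of hemidesmosomes, had 2, and LAMC1 and LAMA3, laminin chains of the basement membrane, had 1 each.

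Sites were also found in transcription factor and signaling genes. ATF3, a stress-induced bZIP factor, had 2 sites, called in 5 and 6 TAM libraries and in no EtOH library, with values from 5.66 to 12.3. MAFK, a small MAF bZIP protein, had 2 sites with AP-1 letters, called in 3 and 4 TAM libraries. NR4A2, an immediate early nuclear receptor, had 1 (chr2:157191143-157191489), at 8.65 and 7.23 in S100A8 EtOH, 7.01 in S100A9 EtOH replicate 3, 11.01, 11.6 and 16.04 in S100A8 TAM and 10.3, 6.97 and 7.98 in S100A9 TAM. For S100A8 the TAM values lay above the EtOH values, which was not tested, and for S100A9 the treatments overlapped. BCL6, a transcriptional repressor, had 2 sites, and TP63, the master factor of basal epithelium, and RUNX2 had 1 each. SMAD3, the transducer of TGF-β signals, had 6 sites between 12621 and 86793 bp, of which the one at 41707 bp was called in all 6 TAM libraries at 6.25 to 17.4, beside 3 sites in TGFB2 and 2 in SKI. SPRED2, an inhibitor of the Ras-ERK pathway, had 3, and the MAP kinase phosphatase genes DUSP4 and DUSP5 and the kinase gene MAP2K1 had 1 each.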

How the data were processed

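The deposited narrowPeak lists give, for each peak of 1 library, the fold enrichment ratio over that library's input and the −log10 q value, as the authors called them with MACS2 from uniquely mapped Bowtie2 alignments to hg19. Each deposited list holds 1 replicate, and versions are not given in the sources used here. The lists reach a q value of 0.05, and peaks at 1e-07 or lower on chromosomes 1 to 22 and X were kept. Peaks were merged by an overlap of at least 1 bp. Genes and sequence came from GENCODE 44 mapped to GRCh37, the same build, and 0 peaks passed a chromosome end. The members and gene lists were chosen with earlier results of these data known. Input and RNA polymerase II libraries were not analysed here, and the samples of the series include no library from untagged cells.

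Treatments were compared by an exact permutation within proteins (200 arrangements) and classes by an exact sign-flip over 11 libraries (2048 patterns), both two-sided, with Benjamini-Hochberg adjustment over 10 motifs or 20 differences. The replicates measure only the spread between these libraries. The test code was checked on simulated data. Named sites were those called in the most libraries, ranked highest by fold enrichment in TAM among those called in 6 TAM and 0 EtOH libraries, called in 2 or more EtOH and 0 TAM libraries, or leading for each motif. Named genes had the most sites, the most per 10 kb among genes with 5 or more, or the most in each list. Sites in NAV2, PXN, KCNIP1, RALGDS and the list genes described singly were picked from these after their values were seen. The result of 1 gene list and of 1 gene is not reported here. Alternatives were a stricter q of 1e-10, all deposited peaks, 1853 peaks per library, each library left out, other transcript and TSS choices, a distance of 5000 bp, a motif window of 50 bp and a replicate block. Python 3.11.15, numpy 2.4.6, pandas 2.3.3, scipy 1.17.1 and matplotlib 3.10.9 were used.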

Additional observations from a re-analysis of the deposited data

Results flagged for a closer look

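CTCF letters at first-intron peaks moved in opposite directions in the proteins. In S100A8 they stood at 8.75 and 7.83% of the EtOH peaks and at 6.42, 6.92 and 5.92% of the TAM peaks, a difference of −1.87 points. In S100A9 they stood at 6.71, 5.80 and 6.11% in EtOH and at 7.64, 9.88 and 8.77% in TAM, a difference of 2.56 points. This was singled out because every S100A8 TAM library lay below, and every S100A9 TAM library above, the EtOH libraries of its protein. The difference between the proteins was not tested. In S100A8 the TAM libraries also lay below at later-intron peaks, with 8.89 to 9.32% against 9.74 and 10.6% in EtOH. The same held at intergenic peaks, with 10.2 to 11.1% against 12.8 and 14.3%. In S100A9 the treatments overlapped in both of these classes. The EtOH shares at first-intron peaks rest on 69 to 240 peaks a library, with a 95% Wilson interval of 2.28 to 13.98% in the smallest. With equal numbers of peaks the differences were −1.29 and 5.98 points, and the treatments overlapped in both proteins.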

How the results depend on the processing

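Of 441 alternative values for 22 results, 377 kept their direction and their side of the threshold or stayed near the reported value. The CTCF differences from later introns and from intergenic sequence kept direction and call in all alternatives.

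The number of members was 1200 at a q of 1e-10, 5008 with every deposited peak, 99 with equal numbers of peaks, 1459 beyond 5000 bp, 1685 with the longest spliced transcript, 3070 with 1 TSS per gene, 834 when every replicate had to call a site and 1540 to 2199 when 1 library was left out, by construction. The share of members called more often in TAM was 99.6, 95.8 and 78.8% with the first 3 of these settings, 98.2% with every replicate and 97.4 to 99.2% without 1 library.

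For the following the cause was not tested. At a q of 1e-10 the S100A9 minus S100A8 share was −0.664 points (exact permutation p = 0.04), the change in TSS distance 3440.67 bp (exact permutation p = 0.2), the percentile difference from later introns −5.34 and AP-1 minus later introns −0.996 points, and 1 motif differed from intergenic peaks. With deposited peaks, the percentile difference from intergenic peaks was −1.10 (exact sign-flip p = 0.0234) and the host promoter share was 1.53 points above later introns (exact sign-flip p = 0.0137). With equal numbers of peaks, TSS distance changed by −306.333 bp, the host promoter share by −0.0691 points, the percentile difference from later introns was −2.93, AP-1 minus later introns −1.59, and 1 motif differed from each class. With the longest spliced transcript, the percentile differences were −0.375 and −1.53 (the latter with exact sign-flip p = 0.0469), CTCF in TAM minus EtOH −0.201, KLF/SP1 minus intergenic −2.05316e-05, and 1 motif differed from later introns. With 1 TSS per gene, the percentile difference from intergenic peaks was 0.411, the host promoter difference 0.243, CTCF in TAM minus EtOH −0.623, AP-1 −2.26 and −2.31 points against later introns and intergenic peaks, and 3, 4 and 5 motifs differed by treatment, from later introns and from intergenic peaks, against 0, 2 and 2. Beyond 5000 bp, KLF/SP1 minus intergenic was −0.5997 and 5 motifs differed from intergenic peaks. With a 50-bp motif window 1 motif differed from later introns, and with only peaks at union sites again 1, with a percentile difference from intergenic peaks of 0.412. Over distal peaks alone the TAM minus EtOH share was −0.342 (exact permutation p = 0.26). Without 1 library, the host promoter difference from later introns ranged from −1.15 to 0.553, the percentile difference from −0.172 to 1.03 and the S100A9 minus S100A8 share from −0.694 to −0.379.

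No pairing by replicate number was seen, as deviations of same-numbered libraries correlated at −0.0372 to 0.0231 over 5 pairs. The EtOH libraries called only 2.32 to 7.68% of the members, so this check could miss a pairing. With the replicate number as a block, TAM minus EtOH was 2.66 points for the share, 2540.9 bp for TSS distance, 41.3 points for the host promoter and −4.98 points for GC content (exact permutation p = 0.0625 for each, the smallest that 5 pairs allow). Depth is unknown, so sites not called cannot be read as unbound.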
